A study of Mus musculus with 5 samples.

Results

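The leukocyte adhesion integrins and their ligands were examined in total RNA of the injured mouse retina. The 9 genes were taken by symbol from the 25655 gene symbols of the deposited count table. They are the integrin chains Itgal, Itgb2, Itgax, Itga4 and Itgb1, the ligands Icam1, Icam2 and Vcam1, and Selplg. All 9 symbols were present, and all 9 passed the filter on low counts that left 14992 genes for testing. C57BL/6 wildtype mice, for which the methods give an age of 8 to 10 weeks and the use of both sexes, had the left optic nerve crushed (ONC). They received Sorbinil at 10 mg/kg, an inhibitor of aldose reductase, or the vehicle DMSO by intraperitoneal injection from the day before ONC and daily from then on. The injured whole retina was taken 7 days after ONC, giving DMSO replicates 1, 2 and 3 (n = 3) and Sorbinil replicates 1 and 3 (n = 2). Sorbinil replicate 2 and uninjured retinas were not analysed here. The paper left out a Sorbinil replicate after a principal component analysis of its mapped reads, without giving the replicate number. The values thus compare Sorbinil with DMSO after injury and carry no measure of what ONC itself changed. The sources do not state the sex of each mouse or that each retina came from a different mouse, so the p-values measure the spread between these 5 retinas.

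Leukocytes leave the blood in steps, in which selectins and their ligands slow the cell on the vessel wall and integrins then hold it there. An integrin is a pair of an alpha and a beta chain. Itgal (CD11a), Itgam (CD11b) and Itgax (CD11c) each pair with the beta2 chain Itgb2 (CD18), which is made by leukocytes, and the pair of Itgal and Itgb2 is LFA-1, whose ligands include ICAM-1 and ICAM-2. Itga4 pairs with Itgb1 to form VLA-4, whose ligand VCAM-1 appears on inflamed endothelium, and Itgb1 also pairs with many other alpha chains in most cell types. Selplg encodes PSGL-1, the leukocyte ligand of P-selectin. In the retina, microglia are the resident cells that make beta2 integrins.

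The retinas differed in ways that bear on every gene described here. The counts on genes totalled between 56096541 and 90288552 per retina, and 3 counts, used as the detection floor, corresponded to between 0.031 and 0.0571 CPM. CPM relates each count to the size of its library after scaling by the TMM method. The rod transducin gene Gnat1 was abundant in all 5 retinas, between 12337 and 21335 CPM, as the retina label requires. Sorbinil replicate 1 stood apart from the other retinas. In it, 2605 of the 14992 genes tested were at least 2-fold below the DMSO mean, compared to 137 genes in Sorbinil replicate 3. Its rod markers had a median log2 difference of 0.51 from the DMSO mean, and its microglia, Müller glia, retinal neuron and endothelial markers had medians of -0.88, -1.47, -1.57 and -2.44. In Sorbinil replicate 3 the same 5 medians were -0.34, -0.12, 0.03, -0.01 and -0.90. The values of the 9 genes are therefore given for each retina.

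With DMSO, the 9 genes covered a wide range of levels per length of exon. Itgb1 was the highest at 7.41 ± 0.44 CPM per kilobase of exon (SD, n = 3), followed by Vcam1 at 2.84 ± 0.69 and Selplg at 1.79 ± 0.37. Itgb2 measured 1.07 ± 0.27 and Itga4 0.437 ± 0.0829 CPM per kilobase. Icam1 at 0.327 ± 0.0912 and Itgax at 0.232 ± 0.0636 CPM per kilobase came next. Icam2 at 0.0738 ± 0.00945 and Itgal at 0.0647 ± 0.0265 CPM per kilobase (SD, n = 3) were the lowest. The ranges of the 3 DMSO retinas overlapped between the neighbours Vcam1 and Selplg, Itga4 and Icam1, Icam1 and Itgax, and Icam2 and Itgal. Within each DMSO retina, however, Vcam1 was above Selplg, Itga4 above Icam1 and Icam1 above Itgax. Only Icam2 and Itgal changed order, with Itgal the higher in DMSO replicate 2, so their order was not resolved. The common beta1 chain was thus the most abundant and the LFA-1 alpha chain was near the bottom, at a level where each retina held between 14 and 48 counts. It is not stated whether the counts include reads in introns, which would raise the level per exon length of genes with long introns. The exon length was that of all annotated exons of a gene merged, such as 7425 bases for Icam2 and 16732 for Itga4. A gene whose main transcript is shorter than this has its level understated. The order of the genes and each ratio between genes per length depend on this choice.

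**Figure D1:**
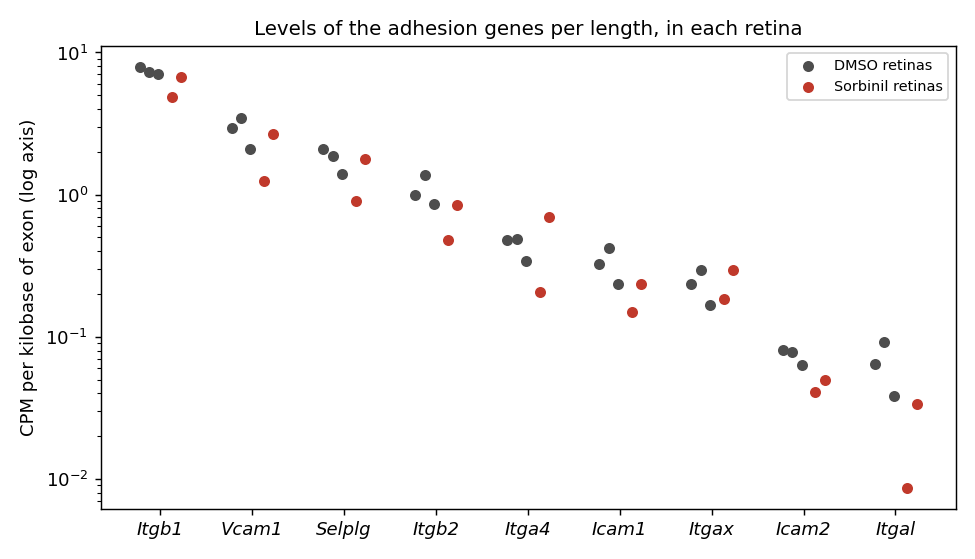
Level of each of the 9 genes in CPM per kilobase of exon (log axis), ordered by the DMSO mean, with 1 point for each of the 3 DMSO (grey) and 2 Sorbinil (red) retinas. With DMSO, Itgb1 averaged 7.41 and Itgal 0.0647 CPM per kilobase.

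The upstream sequences of both chains of LFA-1, of its ligand Icam1 and of Itga4 are printed. Each is the 250 bases before the start of the Ensembl canonical transcript of GENCODE vM39 on GRCm39, read along the gene. The capitals mark matches on either strand to the PU box GAGGAA, a core of sites bound by the myeloid factor PU.1, and to the kappa B consensus of NF-kB.
Itgal, chr7:126895182-126895431, plus strand: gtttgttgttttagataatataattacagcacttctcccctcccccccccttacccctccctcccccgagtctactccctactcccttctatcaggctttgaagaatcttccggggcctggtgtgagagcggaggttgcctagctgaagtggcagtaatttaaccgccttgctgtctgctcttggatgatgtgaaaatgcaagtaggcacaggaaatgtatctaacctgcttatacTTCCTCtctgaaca
Itgb2, chr10:77365836-77366085, plus strand: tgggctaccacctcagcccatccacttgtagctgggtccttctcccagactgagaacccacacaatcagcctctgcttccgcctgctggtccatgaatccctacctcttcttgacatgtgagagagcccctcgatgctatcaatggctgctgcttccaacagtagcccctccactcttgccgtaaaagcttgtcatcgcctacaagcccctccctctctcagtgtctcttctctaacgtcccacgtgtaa
Icam1, chr9:20926422-20926671, plus strand: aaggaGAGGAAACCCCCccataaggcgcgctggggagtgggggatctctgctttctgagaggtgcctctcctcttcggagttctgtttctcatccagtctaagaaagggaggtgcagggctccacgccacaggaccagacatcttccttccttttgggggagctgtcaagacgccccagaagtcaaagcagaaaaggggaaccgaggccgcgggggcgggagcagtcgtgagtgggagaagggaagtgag
Itga4, chr2:79085410-79085659, plus strand: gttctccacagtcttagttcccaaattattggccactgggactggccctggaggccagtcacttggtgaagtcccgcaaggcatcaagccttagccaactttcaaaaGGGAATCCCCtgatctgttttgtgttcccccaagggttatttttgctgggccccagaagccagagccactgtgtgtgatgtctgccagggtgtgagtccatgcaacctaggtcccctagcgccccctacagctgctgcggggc
The PU box stood 14 bases before the start of Itgal, on the opposite strand and so written TTCCTC, and 245 bases before the start of Icam1. The kappa B consensus was matched 243 bases before the start of Icam1, overlapping its PU box, and 143 bases before the start of Itga4, where the site reads as a match on both strands. Neither motif was matched in the window of Itgb2. The PU box was present in 22.9% of 21757 windows of protein-coding genes and the kappa B consensus in 4.23%, and each was present in 2 of the 9 windows of the genes described here. The windows of the other genes, among them Itgb1 and Icam2, held neither motif and are not printed. Both LFA-1 chains, Icam1, Itgb1 and Icam2 were below every DMSO retina in both Sorbinil retinas, so genes with and without a match were among them. A match is a string of letters and not a measured binding site, and a link to the Sorbinil values was not tested.

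Of the leukocyte integrin chains, Itgal was lower in the Sorbinil retinas, whereas Itgb2 did not pass the threshold and Itgax and Itga4 had means close to those of DMSO. Genes were called where edgeR's quasi-likelihood test gave p at or under 0.1 before adjustment and the fold was 2 or more, which is the threshold of the study. Itgal was the only 1 of the 9 genes called lower, and 0 were called higher. Over all 14992 genes tested, 203 genes or 1.35% were called lower and 54 genes or 0.360% were called higher. After Benjamini-Hochberg adjustment over all genes, 0 genes had an adjusted p-value under 0.05 by edgeR's quasi-likelihood test, compared to 14 by its likelihood ratio test and 21 by the DESeq2 Wald test, while 751 genes or 5.01% had an unadjusted p-value under 0.05 by the quasi-likelihood test. Of the 9 genes, 0 had a p-value under 0.05 before adjustment and 4 had one of 0.1 or less. Their adjusted p was 0.758, apart from Itgax at 0.973 and Itga4 at 0.980 (edgeR).

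Itgal (ENSMUSG00000030830, chromosome 7, 126895432 to 126934320, plus strand) encodes the alpha chain that distinguishes LFA-1. It measured 0.424, 0.600 and 0.252 CPM in DMSO replicates 1, 2 and 3, and 0.057 and 0.221 CPM in Sorbinil replicates 1 and 3. Both Sorbinil retinas lay below every DMSO retina, but DMSO replicate 3 and Sorbinil replicate 3 were close, since their gap of 0.031 CPM was smaller than its counting error of 0.0883 CPM. These values came from 41, 48 and 14 counts with DMSO, and from 3 and 15 with Sorbinil. The mean fell from 0.425 ± 0.174 CPM (SD, n = 3) to 0.139 ± 0.116 CPM (SD, n = 2). In the fit it was 2.96-fold lower, a log2 difference of -1.57 ± 0.68 (standard error), with p = 0.0622 before adjustment in edgeR and p = 0.1 in the exact two-sided permutation test, the smallest p-value that the 10 groupings of 3 and 2 retinas can give. In Sorbinil replicate 1 the level was 0.129 of that of the DMSO retinas together, with a 95% interval from 0.0261 to 0.387 that covers counting error only (exact binomial). Itgal was no longer called without DMSO replicate 1 (log2 fold change -1.58), DMSO replicate 2 (-1.25) or Sorbinil replicate 1 (-0.95), whereas without Sorbinil replicate 3, where Sorbinil rests on 3 counts, it was -2.88. In bulk retina, fewer cells of a type and less RNA per cell cannot be told apart, here and for each gene that follows.

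Itgb2 (ENSMUSG00000000290, chromosome 10, 77366086 to 77401542, plus strand) encodes the beta2 chain with which Itgal, Itgam and Itgax pair. Its expression was 3.22, 4.47 and 2.77 CPM in the DMSO retinas, and 1.56 and 2.76 CPM in Sorbinil replicates 1 and 3. Both Sorbinil retinas were again below every DMSO retina, but Sorbinil replicate 3 missed the lowest DMSO retina by only 0.0166 CPM, within the counting error of 0.301 CPM. The log2 fold change was -0.69 ± 0.36 (standard error, edgeR p = 0.108, exact permutation p = 0.2). Leaving out Sorbinil replicate 1 gave -0.33, and leaving out replicate 3 gave -1.16.

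Itgax (ENSMUSG00000030789, chromosome 7, 127728668 to 127749829, plus strand), the alpha chain known as a marker of dendritic cells and of some activated microglia, did not follow its beta partner. It measured 1.148, 1.43 and 0.810 CPM with DMSO, and 0.894 and 1.43 CPM with Sorbinil. The groups overlapped, Sorbinil replicate 3 being level with the highest DMSO retina, with a log2 fold change of 0.04 ± 0.38 (edgeR p = 0.916, exact permutation p = 0.9), whose sign turned to -0.03 when libraries were scaled by their totals alone. Relative to Itgb2, however, Itgax was higher with Sorbinil. The ratio of their levels per length was 0.239, 0.213 and 0.195 with DMSO, and 0.383 and 0.347 with Sorbinil, without overlap (p = 0.1, exact two-sided permutation test). No single quantity could reach 0.05 by this test. Itgb2 itself was below every DMSO retina in both Sorbinil retinas, so a ratio to Itgb2 also rises for a gene that did not change. The share of all genes that were higher relative to Itgb2 was not computed, so the ratio shows nothing particular to Itgax.

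The balance of the beta2 alpha chains was compared within each retina from their levels per length, over Itgal, Itgax and Itgam together. Itgam, the alpha chain of the complement receptor CR3, made up between 84.8% and 86.3% with DMSO, and 82.0% and 85.4% in Sorbinil replicates 1 and 3 (p = 0.3, exact two-sided permutation test). Itgal made up 3.25%, 3.34% and 2.55% with DMSO, compared to 0.811% and 1.49% with Sorbinil (p = 0.1, exact permutation test). Itgax made up 11.9%, 10.7% and 11.1% with DMSO, and 17.2% and 13.1% with Sorbinil (p = 0.1, exact permutation test). The share of Itgal was thus lower and that of Itgax higher in both Sorbinil retinas than in any DMSO retina, with Itgam by far the main partner in all 5. The 3 alpha chains summed to 2.00, 1.99 and 1.76 times the level of Itgb2 with DMSO, and to 2.23 and 2.65 times with Sorbinil (p = 0.1, exact permutation test). These 4 quantities and the ratio of Itgax to Itgb2 are among 9 ratios computed. Of the 9, 6 reached p = 0.1 in the exact permutation test. The Itgal share rests on 3 counts in Sorbinil replicate 1 and 15 in replicate 3, and the Itgax share on 47 and 97. The counting error of the shares was not computed. Exons of Itgam share 3450 bases with Gm49368 on the same strand, which held at most 2 counts in any retina. How reads in these bases were assigned is not given, which bears on every share.

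Both chains of VLA-4 were measured at higher depth. Itga4 (ENSMUSG00000027009, chromosome 2, 79085660 to 79163467, plus strand) was at 8.06, 8.16 and 5.71 CPM with DMSO, and at 3.44 and 11.6 CPM in Sorbinil replicates 1 and 3. The 2 Sorbinil retinas were the lowest and the highest of the 5, which gave a log2 fold change of 0.04 ± 0.50 (edgeR p = 0.941, exact permutation p = 0.8). The mean of 7.497 ± 5.73 CPM (SD, n = 2) therefore describes neither Sorbinil retina, and the log2 fold change was 0.67 without replicate 1 and -1.09 without replicate 3. Exons of Itga4 share 3481 bases with those of Cerkl on the opposite strand, and whether reads were assigned by strand is not given. Cerkl measured 19.9, 22.5 and 23.3 CPM with DMSO, and 48.5 and 20.01 CPM in Sorbinil replicates 1 and 3, so it was highest in the retina in which Itga4 was lowest.

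Itgb1 (ENSMUSG00000025809, chromosome 8, 129411876 to 129460618, plus strand), the beta chain of VLA-4 and of most integrins that bind the extracellular matrix, was at 47.2, 43.3 and 42.2 CPM with DMSO, and at 28.9 and 40.4 CPM with Sorbinil. Both Sorbinil retinas were below the DMSO range, replicate 3 by 1.80 CPM with a counting error of 1.16 CPM. The log2 fold change was -0.35 ± 0.17 (edgeR p = 0.0917, exact permutation p = 0.1), short of the 2-fold limit. It was -0.12 when Sorbinil replicate 1 was left out and -0.61 when replicate 3 was. Itga4 was 0.0609, 0.0673 and 0.0482 of the level of Itgb1 per length with DMSO, and 0.0425 and 0.102 with Sorbinil (p = 0.8, exact permutation test).

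**Figure D2:**
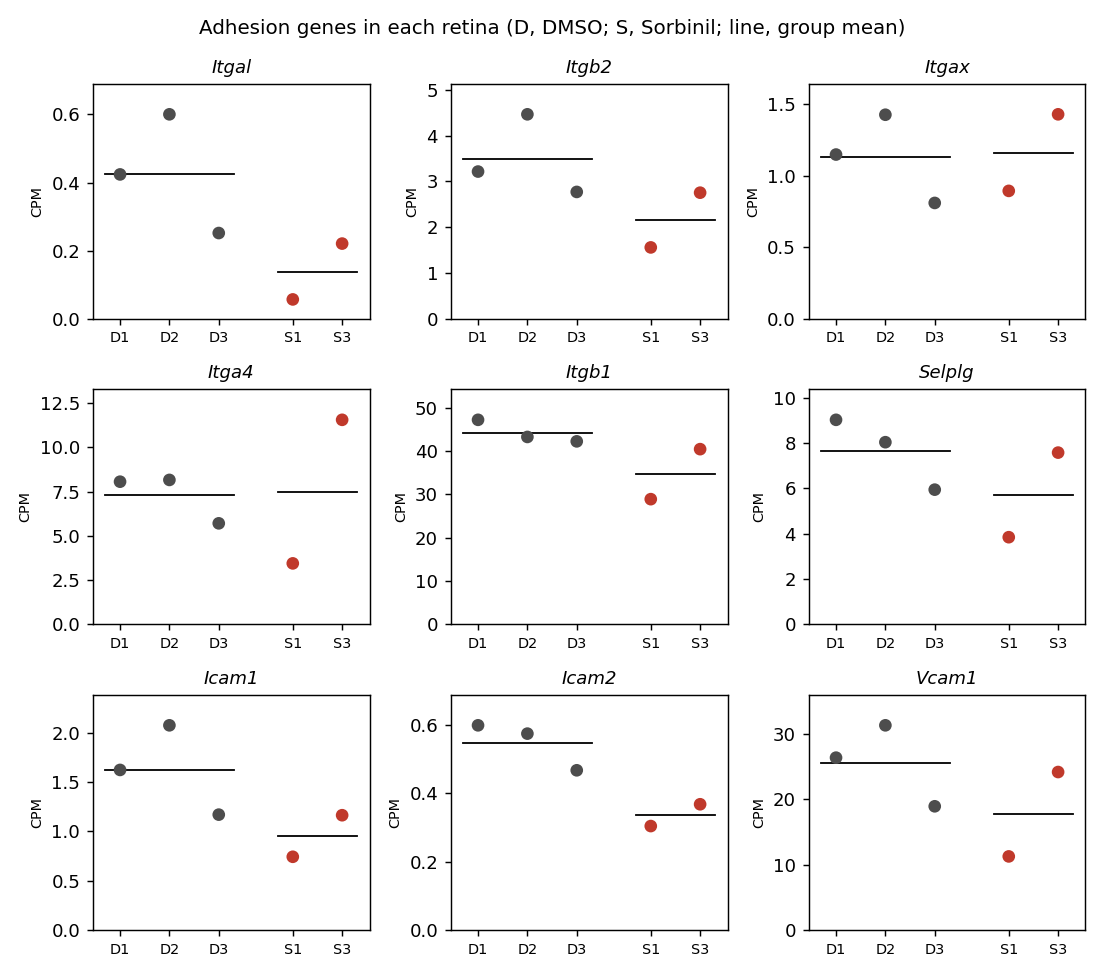
Expression of each of the 9 genes (CPM, each panel with its own axis) in the 3 DMSO and 2 Sorbinil retinas, with 1 point per retina (D1 to D3 for DMSO, S1 and S3 for Sorbinil) and the group means as lines. Sorbinil replicate 1 was the lowest of the 5 retinas for 8 genes, and Sorbinil replicate 3 lay above every DMSO retina for Itga4 at 11.6 CPM.

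The ligands of LFA-1 and VLA-4 on endothelium and other cells were lower on average with Sorbinil, by less than 2-fold each. Icam1 (ENSMUSG00000037405, chromosome 9, 20926672 to 20940113, plus strand), the cytokine-induced ligand of LFA-1 and CR3, measured 1.62, 2.08 and 1.17 CPM with DMSO, and 0.742 and 1.16 CPM with Sorbinil. Sorbinil replicate 3 and DMSO replicate 3 were nearly equal, with a gap of 0.00596 CPM and a counting error of 0.195 CPM. This gave a log2 fold change of -0.77 ± 0.38 (edgeR p = 0.0948, exact permutation p = 0.2), which was -0.48 without Sorbinil replicate 1 and -1.13 without replicate 3. Icam2 (ENSMUSG00000001029, chromosome 11, 106263312 to 106278943, minus strand), which endothelium carries at rest, was at 0.600, 0.575 and 0.468 CPM with DMSO, and at 0.304 and 0.368 CPM with Sorbinil. Its groups did not overlap, but Sorbinil replicate 3 and DMSO replicate 3 were close. Their gap of 0.0996 CPM was smaller than its counting error of 0.118 CPM. On the log2 scale the 2 Sorbinil retinas of Icam2 were closer to each other than those of Itgal, Itgb2, Itgb1 or Icam1. Its log2 fold change was -0.70 ± 0.34 (edgeR p = 0.0888, exact permutation p = 0.1), from 58, 46 and 26 counts with DMSO and 16 and 25 with Sorbinil. Icam1 was between 3.74 and 5.39 times as abundant per length as Icam2 with DMSO, and 3.64 and 4.72 times with Sorbinil, so their balance overlapped (p = 0.8, exact permutation test).

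Vcam1 (ENSMUSG00000027962, chromosome 3, 115903598 to 115923355, minus strand), the ligand of VLA-4, was at 26.4, 31.3 and 18.9 CPM with DMSO, and at 11.2 and 24.2 CPM with Sorbinil. Only Sorbinil replicate 1 was below the DMSO range, and replicate 3 was inside it. The log2 fold change was -0.53 ± 0.38 (edgeR p = 0.213, exact permutation p = 0.4), and it was -0.07 without Sorbinil replicate 1 and -1.18 without replicate 3. Vcam1 was 6.09, 7.14 and 6.17 times the level of its receptor chain Itga4 per length with DMSO, and 6.08 and 3.89 times with Sorbinil (p = 0.1, exact permutation test). In Sorbinil replicate 1 both genes were low and their ratio was next to the lowest DMSO value, whereas in replicate 3 Itga4 was high. Exons of Icam1 and Vcam1 overlap antisense noncoding genes by 511 and 61 bases, and those of Icam2 overlap Prr29 by 1818 bases, where Prr29 itself held at most 2 counts in any retina.

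Selplg (ENSMUSG00000048163, chromosome 5, 113956597 to 113970705, minus strand) measured 9.02, 8.03 and 5.94 CPM with DMSO, and 3.84 and 7.57 CPM with Sorbinil. As for Vcam1, replicate 1 was below the DMSO range and replicate 3 within it. The log2 fold change was -0.42 ± 0.35 (edgeR p = 0.272, exact permutation p = 0.4), which was -0.01 without Sorbinil replicate 1. The endothelial selectins that PSGL-1 engages were hardly detected. Sele and Selp had 22 and 33 counts in DMSO replicate 2, at most 4 counts in the other DMSO retinas and 0 counts in both Sorbinil retinas, where a count of 0 allows up to 0.0571 and 0.0442 CPM. Neither passed the filter.

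Across the 9 genes, 7 had a log2 fold change below 0, compared to 51.0% of all genes tested, and the median was -0.53 beside -0.008 over all genes. In 5 of the 9 genes (Itgal, Itgb2, Itgb1, Icam1 and Icam2) both Sorbinil retinas were below every DMSO retina, which was so for 10.5% of all genes, and in 0 of the 9 were both above, compared to 12.8% of all genes. For Itgal, Itgb2, Icam1 and Icam2 the gap between the groups was smaller than its counting error, and only for Itgb1 was it larger. The 9 genes were also chosen with earlier results of these data known, so these shares are a description and not a test. With no limit on the fold, the 4 genes at a p-value of at most 0.1 (Itgal, Itgb1, Icam1 and Icam2) were all lower, beside 4.33% of all genes lower and 6.98% higher. The 2 Sorbinil retinas did not contribute equally. Replicate 1 was below every DMSO retina for 8 of the 9 genes, beside 41.7% of all genes, and above every one for 0, beside 43.4%, with a median log2 difference of -1.06 from the DMSO mean. This was not particular to the 9 genes. Replicate 1 was also below every DMSO retina for 16 of 17 microglia, 7 of 7 Müller glia and 8 of 8 retinal neuron markers. The same held for 11 of 12 endothelial markers, but for 0 of 8 rod markers. Replicate 3 was below every DMSO retina for 5, beside 29.1% of all genes, with a median of -0.13. It was above every DMSO retina for 2, Itga4 and by a narrow margin Itgax, beside 27.3% of all genes. The DMSO retinas also differed among themselves in a shared way, since replicate 3 was the lowest of the 3 for all 9 genes and replicate 2 the highest for 6.

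**Figure D3:**
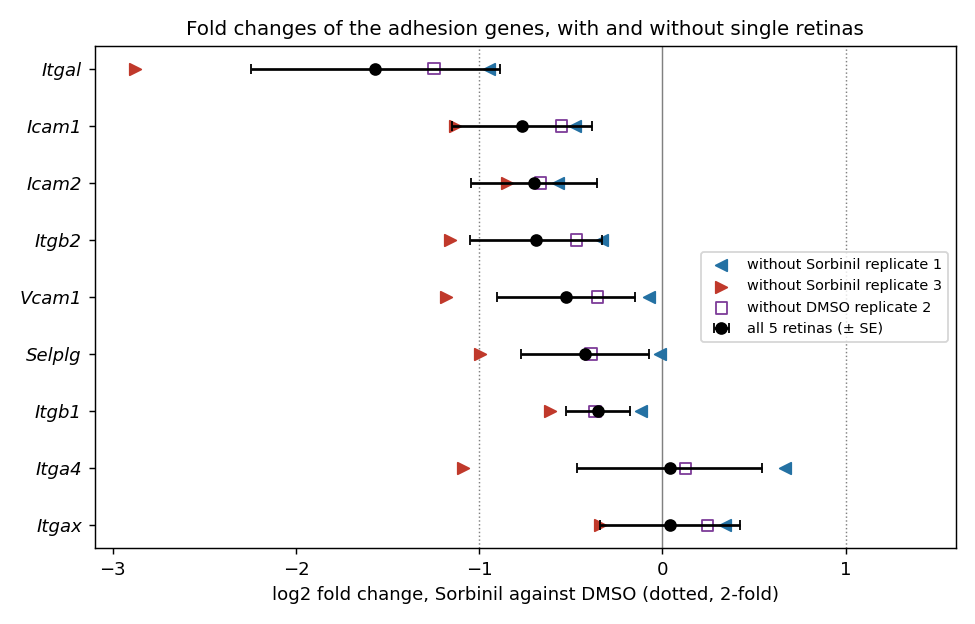
Log2 fold change of each of the 9 genes, Sorbinil against DMSO, from all 5 retinas with its standard error (circles, edgeR), and without Sorbinil replicate 1, Sorbinil replicate 3 or DMSO replicate 2 (other symbols), with dotted lines at 2-fold. Without Sorbinil replicate 3 all 9 lay below 0, and without Sorbinil replicate 1 Vcam1 and Selplg lay near 0 and Itga4 at 0.67.

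The leukocyte genes were next set against markers of the cells that could carry them. The 17 microglia markers, among them Cx3cr1, P2ry12 and Tmem119, summed to between 179 and 263 CPM with DMSO, and to 121 and 199 CPM in Sorbinil replicates 1 and 3. Of these markers 16 had a log2 fold change below 0 with a median of -0.43, and 0 were called. Their sum too was highest in DMSO replicate 2 and lowest among the DMSO retinas in replicate 3. Single markers differed, since Cx3cr1 and Tmem119 were highest in DMSO replicate 1 by a narrow margin and Siglech in DMSO replicate 3. Markers of neutrophils, monocytes and B cells had few counts. The 6 neutrophil markers, such as S100a8 and S100a9, summed to 44, 155 and 6 counts with DMSO and to 0 and 3 with Sorbinil. The 4 monocyte markers reported here, Ccr2, Ly6c2, Plac8 and Chil3, summed to 11, 59 and 5 counts with DMSO and to 9 and 16 with Sorbinil. The 4 B cell markers summed to at most 15 counts in any retina. The 7 T and NK cell markers summed to between 63 and 143 counts with DMSO and to 51 and 70 with Sorbinil. Most of these counts were from Lck, Cd8a and Cd4, with Lck alone at 108, 53 and 41 with DMSO and 22 and 48 with Sorbinil. Cd3d, Cd3e, Cd3g and Ncr1 were at 0 in all retinas but DMSO replicate 2. The 4 dendritic cell markers were uneven. Xcr1 and Clec9a were at 0 in all 5 retinas, and Flt3 had 96, 56 and 23 counts with DMSO and 13 and 48 with Sorbinil. Zbtb46 was at 5.80, 5.68 and 5.24 CPM with DMSO, and at 6.68 and 6.04 CPM in Sorbinil replicates 1 and 3, above every DMSO retina (log2 fold change 0.19, edgeR p = 0.316, exact permutation p = 0.1). DMSO replicate 2 thus held the most neutrophil and monocyte counts as well as the highest DMSO values of 6 of the 9 genes, and the part of such cells in these values was not tested.

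Relative to the microglia markers, the beta2 genes did not move together. The log2 CPM of Itgal minus the mean log2 CPM of the 17 markers was -3.94, -3.71 and -4.34 with DMSO, and -5.47 and -4.68 with Sorbinil, a difference of -1.08 with no overlap, beside 1.84% of all genes with both Sorbinil retinas below every DMSO retina on this scale. For Itgb2 the difference was -0.23, with -1.09, -0.87 and -1.02 with DMSO, and -1.25 and -1.20 with Sorbinil. For Itgax it was 0.52 in the other direction, with values between -2.76 and -2.50 with DMSO, and -2.04 and -2.13 with Sorbinil, beside 14.2% of all genes with both above. Itgal was therefore lower and Itgax higher relative to these markers in both Sorbinil retinas, whether the outlying replicate 1 was taken or replicate 3. For Itgal this rests on 3 counts in replicate 1, and on 15 in replicate 3 beside 14 in DMSO replicate 3. The CPM of Itgal in Sorbinil replicate 3 and DMSO replicate 3 differed by less than the counting error. The exact two-sided permutation p-value was 0.1 for Itgal and Itgax, the smallest possible, and 0.2 for Itgb2. Selplg, with a difference of -0.002 (p = 1, exact permutation test), and Itga4, with one of 0.29 (p = 0.7, exact permutation test), overlapped between the groups.

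The ligands and Itgb1 were set against 12 endothelial markers, such as Pecam1, Cldn5 and Flt1. Their mean log2 CPM differed from the DMSO mean by -2.14 in Sorbinil replicate 1 and by -0.77 in replicate 3. All 12 had a log2 fold change below 0 with a median of -1.60, 7 of them called lower. Their summed level was between 316 and 494 CPM with DMSO, and 165 and 416 CPM in Sorbinil replicates 1 and 3. The markers were not alike, since 8 of the 12 had a lower log2 fold change than Icam1 or Icam2, and 10 of the 12 than Vcam1 or Itgb1. Relative to the mean log2 CPM of the endothelial markers, Vcam1 was at 1.69, 1.97 and 1.83 with DMSO, and at 2.82 and 2.55 with Sorbinil, a difference of 0.85. Icam1 was at -2.30, -1.92 and -2.15 with DMSO, and at -1.05 and -1.79 with Sorbinil, a difference of 0.70 that became 0.33 without Sorbinil replicate 1. In both genes the Sorbinil retinas were above the DMSO retinas on this relative scale. Icam2 was at -3.70, -3.73 and -3.42 with DMSO, and at -2.26 and -3.38 with Sorbinil, a difference of 0.79 that became 0.23 without Sorbinil replicate 1. Itgb1 was at 2.53, 2.44 and 2.99 with DMSO, and at 4.18 and 3.29 with Sorbinil, a difference of 1.08 that became 0.64 without replicate 1. All 4 genes thus lay above every DMSO retina in both Sorbinil retinas (p = 0.1 each, exact two-sided permutation test), but so did 87.0% of all genes tested, so the count shows nothing particular to these 4. These genes are also made by cells other than endothelium, and which cells carried them was not measured.

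**Figure D4:**
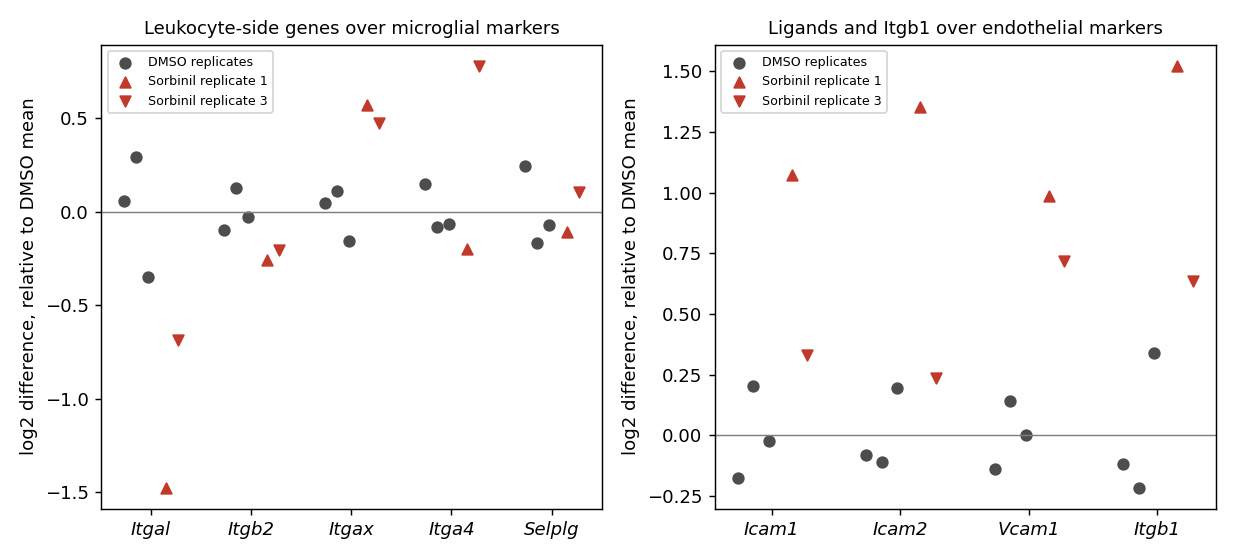
Log2 CPM of each gene minus the mean log2 CPM of the markers of 1 cell type, drawn relative to its DMSO mean in the 3 DMSO (grey circles) and 2 Sorbinil retinas (red triangles), with microglia markers for Itgal, Itgb2, Itgax, Itga4 and Selplg and endothelial markers for the other genes. Itgal was lower by 1.08 and Itgax higher by 0.52 relative to microglia markers, and the 4 genes set against endothelial markers were higher by between 0.70 and 1.08, a direction shared by 87.0% of all genes in both Sorbinil retinas.

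The other genes of leukocyte adhesion were described from lists. Of 68 listed genes 58 were tested, 1 was called lower and 1 higher, and the median log2 fold change was -0.23. The gene called higher was Itgae (CD103), the alpha chain that pairs with Itgb7 and binds E-cadherin. It measured 0.300, 0.625 and 0.378 CPM with DMSO, and 1.45 and 0.987 CPM with Sorbinil, without overlap, with a log2 fold change of 1.48 ± 0.43 (edgeR p = 0.0144, exact permutation p = 0.1, adjusted p = 0.758). Its partner Itgb7 had a log2 fold change of 0.04 at 0.266 ± 0.101 CPM (SD, n = 3) with DMSO, and Itgad was at 0 in all retinas. Itgam, the main alpha chain above, had a log2 fold change of -0.34 (edgeR p = 0.442, exact permutation p = 0.5), with 4.49 and 9.86 CPM in Sorbinil replicates 1 and 3 beside between 6.64 and 12.02 CPM with DMSO.

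The gene called lower was Cdh5, the cadherin of endothelial junctions, at 4.41, 4.64 and 1.84 CPM with DMSO, and 0.476 and 1.47 CPM with Sorbinil (log2 fold change -1.88 ± 0.64, edgeR p = 0.0275, exact permutation p = 0.2, adjusted p = 0.758). It belongs to a list of 14 further ligands and junction molecules of diapedesis, and is also one of the endothelial markers above. Of that list 12 were tested, 11 had a log2 fold change below 0 and the median was -0.53, which was -0.17 without Sorbinil replicate 1 and -1.12 without replicate 3. Of 13 carriers and enzymes of selectin ligands 11 were tested and 0 were called, with a median of -0.07 that became -0.55 without Sorbinil replicate 3. The carrier Cd34, which endothelium and progenitors make, had the smallest p-value there, at 6.89, 8.34 and 5.29 CPM with DMSO, and 2.80 and 4.24 CPM with Sorbinil (log2 fold change -0.96 ± 0.30, edgeR p = 0.0201, exact permutation p = 0.1), just short of the 2-fold limit.

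Integrin chains of the remaining lists and the machinery that switches integrins on gave 0 calls. Of 11 other alpha chains 8 had a log2 fold change below 0 with a median of -0.29, and the 4 of 5 other beta chains tested had a median of -0.26. These directions rested on Sorbinil replicate 1, since without it the medians were 0.16 and 0.10, and without replicate 3 they were -1.06 and -0.96. Of the 4 beta chains tested 1 was below every DMSO retina in both Sorbinil retinas, and of the 11 alpha chains 0, beside 10.5% of all genes. It was Itgb3, the beta chain of the platelet integrin and of a vitronectin receptor, with a log2 fold change of -0.71 (edgeR p = 0.120, exact permutation p = 0.1). Of 12 genes of integrin activation, among them the talin gene Tln1 and the kindlin gene Fermt3, 11 were tested with a median of 0.005 and a range from -0.75 to 0.27. Of these 11, Rap1a was above every DMSO retina in both Sorbinil retinas (edgeR p = 0.121, exact permutation p = 0.1), beside 12.8% of all genes, and 0 were below. The 6 genes of the NF-kB pathway, which induces Icam1 and Vcam1 in other settings, had a median of 0.05 and a range from -0.31 to 0.24, and the median was -0.18 without Sorbinil replicate 1.

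By the fixed measure, the root mean square difference of log2 CPM centred on each gene's mean over the 5 retinas, the genes most like Itgb2 among 13047 genes were Gpx3 at 0.03, Tgfb1 at 0.0539 and Rac2 at 0.0846. The genes most like Icam2 were Parp9 at 0.0486, Tax1bp3 at 0.0737 and Fcgr1 at 0.0797. With 5 retinas that share the low values of Sorbinil replicate 1, this likeness is a description of these libraries.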

How the data were processed

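Total RNA of 5 injured retinas (3 DMSO, 2 Sorbinil) was sequenced, and the reads were trimmed and aligned by the authors in CLC Genomics Workbench against GRCm39. The deposited values are whole-number total counts per gene without normalization. The annotation release, the handling of introns and the use of strand in counting are not given in the sources used here. The labels give reverse-stranded libraries. Totals ran from 56096541 to 90288552 counts, and reads carry no molecular identifiers, so intervals and floors cover counting error only. No pair of retinas matched within sampling noise (lowest chi-square per degree of freedom 24.6), and each entered as 1 replicate.

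Tests ran in edgeR 4.0.16 under R 4.3.3 (filterByExpr with a minimum count of 10, TMM, glmQLFit and glmQLFTest, treatment as the only term), with Benjamini-Hochberg adjustment over 14992 genes. Calls used the threshold of the study, p of 0.1 or less before adjustment with at least 2-fold. Single values were compared by exact two-sided permutation of log2(CPM + 0.01), ratios of levels or differences of log2 CPM (prior count 2) over the 10 groupings of 5 retinas. The steps were tested on simulated data. Levels per length used the length of all exons of a gene merged in GENCODE vM39, in which 23524 of 25655 symbols were found.

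All 9 genes were named whatever their values. From each list of adhesion genes the called genes were named, or otherwise at most the 3 with the smallest p-value. Itgam, Itgb7, Itgad, Sele, Selp and Tln1 were named outside this rule, as partner chains, selectins or examples. The 3 genes most like Itgb2 or Icam2 were named among tested genes with a mean of at least 1 CPM. The genes, lists and markers were chosen with earlier results of these data known. Some genes of the lists are not reported here. Alternatives were scaling by DESeq2 1.42.0, by upper quartiles or by library size, other filters, the likelihood ratio and DESeq2 Wald tests, the replicate number as a block, a prior count of 0.5, other thresholds, and leaving out each retina.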

Additional observations from a re-analysis of the deposited data

How the results depend on the processing

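Of the 9 genes 1 was called lower. This count was 0 with at least 10 counts required in every retina, where Itgal was not tested, 0 with a p-value of at most 0.05, 0 with an adjusted p-value of at most 0.1, and 4 with no fold limit. It ran from 0 to 5 as each retina was left out, with 0 without DMSO replicate 1 or 2 or Sorbinil replicate 1, and 5 without Sorbinil replicate 3, when 1 Sorbinil retina was assumed to vary like the DMSO retinas. The 203 genes called lower overall became 119 with at least 10 counts in every retina, 129 at p of at most 0.05, 0 after adjustment and 649 with no fold limit, and ran from 129 to 2656 as each retina was left out, the latter without Sorbinil replicate 3. The 54 called higher became 33 with library-size scaling, 115 without a filter, 29 with at least 10 counts in every retina, 0 after adjustment and 1047 with no fold limit, and ran from 35 to 247. In the lists of adhesion genes, the 1 called lower became 3 with library-size scaling, 0 after adjustment and 5 with no fold limit, and ran from 1 to 21, and the 1 called higher became 0 after adjustment and ran from 1 to 2. The cause of these differences was not tested.

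The median log2 fold change of the 9 genes ran from -1.09 to -0.12 as each retina was left out, with the ends set by Sorbinil replicates 3 and 1. The median of the leukocyte genes over microglia markers ran from -0.20 to 0.12, and that of the ligands and Itgb1 over endothelial markers from 0.48 to 1.21. Itgax ran from -0.34 to 0.34 and Itga4 from -1.09 to 0.67, and relative to microglia markers Itga4 ran from -0.20 to 0.78 and Selplg from -0.11 to 0.12. Itgax was -0.031 with library-size scaling, which moved the median of all genes from -0.008 to -0.11. Itgal, Itgb2, Itgb1, Icam1, Icam2, Vcam1 and Selplg stayed below 0 under every alternative that tested them.

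DMSO and Sorbinil retinas share the replicate numbers 1 and 3, but nothing says that a number marks a shared litter or day. The deviations of same-numbered retinas from their group means had correlations of -0.24 and -0.12. With 2 Sorbinil retinas, the deviations of replicates 1 and 3 mirror each other. These correlations therefore cannot show whether the numbers pair the retinas. With the replicate number as a block, 0 of the 9 genes were called lower, 2 genes of the adhesion lists were, and Itga4 was -0.10. Depth limited Itgal and Icam2 most, with 3 and 16 counts in their lowest retinas.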

Other observations

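Other cells of the vessel wall and of the surface of the retina varied as well. The 6 pericyte markers summed to 91.0, 80.4 and 66.6 CPM with DMSO, and to 23.8 and 67.9 CPM in Sorbinil replicates 1 and 3, and all 6 had a log2 fold change below 0 with 0 called. The 3 astrocyte markers summed to between 58.1 and 80.7 CPM with DMSO, and to 23.6 and 67.7 CPM with Sorbinil, with 0 called. The 5 markers of the pigment epithelium summed to 93.0, 82.8 and 219 CPM with DMSO, and to 72.3 and 124 CPM with Sorbinil. DMSO replicate 3, the DMSO retina in which all 9 adhesion genes were lowest, thus held the most RNA of the pigment epithelium, and its part in those values was not tested.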
